A study of Mus musculus with 6 samples.

Results

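The 94 dense start-site clusters described here were runs of 5 or more CAGE peaks that lay close together on the same strand of the mouse genome. Cap analysis of gene expression (CAGE) reads RNA from its capped 5′ end. Each tag thus marks where transcription began, and a peak is a short stretch of neighbouring starts. Peaks were kept when they reached 1 CPM (tags scaled to 1000000 per library) in 3 or more libraries. Kept peaks were joined along a strand where the gap from the end of a peak to the start of the next was at most 300 bp, and chains of 5 or more peaks are called dense clusters. The members were thus chosen by measured values, the CPM of each peak in the 6 libraries, and by position. The 94 clusters held 536 of the 19162 peaks that passed the filter, out of 158966 deposited peaks, and they were 94 of 13763 chains, of which 9877 were single peaks. Left out by position were a stretch of chromosome 2 and the beginning of chromosome 9, with 67 peaks that had passed the level filter.

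The libraries were made from Ba/F3, a mouse pro-B cell line that needs interleukin-3 unless an active kinase is introduced. In 3 libraries cells carried FLT3-ITD, the receptor tyrosine kinase FLT3 with an internal tandem duplication that keeps it active. In the other 3 they carried FLT3-ITD/D835Y, the same duplication with a substitution in the activation loop of the kinase, and this group is called the double mutant. A further label numbers the substituted position differently in each of these 3 samples, so groups were taken from the titles. The strain label names BALB/c for both a B cell and a myeloma source, and the culture medium named in the labels holds serum and no added cytokine. FLT3-ITD was thus shared by both groups, and no library of parental cells was used here. How the receptor was introduced, whether a line was a clone and how the replicates were grown are not given in the sources used here. The spread behind each p-value is that between these samples and may be technical only. Library depth was between 5884258 and 13977941 tags, so that 1 tag was worth 0.0715 to 0.170 CPM.

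Mammalian promoters differ in shape. Some start transcription within a few bases, often under a TATA box, whereas others, often in CpG islands, spread their starts over a wide stretch. A gene can also have several separate starts on the same strand, which can give RNAs with different 5′ ends or different translation starts, and the start that carries most tags is called the dominant start. CAGE tags inside a transcribed gene can also come from capped ends downstream of the promoter. The files give positions and no gene names, so clusters are named by position in mm9, the mouse build in the submitters' processing notes. No gene or cell marker could be checked against the label of the cell line, and the files do not state whether positions are counted from 0 or 1.

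Of the 94 clusters, 62 held 5 peaks, 18 held 6, 8 held 7, 2 held 8, 2 held 9, and the largest held 13 and 15. They lay on 18 chromosomes, with 10 on chromosome 17 and 9 on chromosome 7, and 50 were on the plus strand and 44 on the minus strand. Clusters spanned 177 to 2236 bp with a median of 511 bp, and peaks covered a median of 32.2% of that span. The median gap between neighbouring peaks was 57 bp, 12 of 442 gaps were 1 bp, and 45 were 200 bp or more. The joining limit was passed closely in places, since the widest gap inside a cluster was 297 bp and the nearest chain outside began 309 bp away. A further 183 chains held 4 peaks. At the level limit, the lowest member peak had a third-highest library value of 1.002 CPM, and the highest peak outside had 0.989 CPM. Of the 536 peaks, 430 reached 1 CPM in all 6 libraries and 30 in exactly 3. Of those 30, 6 passed in the FLT3-ITD libraries alone and 3 in the double-mutant libraries alone, and these peaks had to differ between groups.

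Dense clusters held few of the tags of a library, and their median level was above that of shorter chains. They took between 1.21% and 1.30% of the tags of a library, which summed to 12424 ± 371 CPM in FLT3-ITD and to 12667 ± 289 CPM in double-mutant libraries (SD, n = 3). The median summed level was 63.5 CPM for a dense cluster, 29.97 CPM for chains of 3 or 4 peaks, 17.9 CPM for pairs and 7.61 CPM for single peaks. The median single peak within a dense cluster was weaker, at 4.20 CPM. The rule favours such sums, because every added peak had to pass 1 CPM.

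In most clusters a dominant start stood among minor ones. The dominant peak took a median of 55.6% of the tags of its cluster, from 19.98% to 98.2%. It took more than 50% in 53 clusters, more than 75% in 19 and less than 35% in 16. The effective number of starts, the number of equally used starts that would give the same Shannon entropy, had a median of 3.32 and ranged from 1.12 to 10.9. The dominant peak was the most upstream in 15 clusters, the most downstream in 18 and an inner peak in 61. Dominant peaks were wider than the others, with medians of 38 and 25 bp. The same peak was dominant in all 6 libraries in 72 clusters, and in 87 the group means named the same peak.

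Rises and falls of whole clusters were found in similar numbers. Summed levels were compared with limma on log2(CPM + 1), fitted to all 13763 chains with Benjamini-Hochberg adjustment, and a change was called at an adjusted p under 0.05. In the double mutant 13 clusters rose and 15 fell, together 29.8% of 94, beside 28.1% of all chains. Among all chains 16.0% rose and 12.1% fell. The median log2 difference was 0.05 for the clusters and 0.05 for all chains. Groups did not overlap in any of the 28 called clusters. They were also apart in clusters that were not called, such as chr10:80641895-80643021, so non-overlap adds little to a call. Its share over all called chains was not counted. In a culture of cells, fewer cells using a start and less RNA from each cell cannot be told apart.

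**Figure D1:**
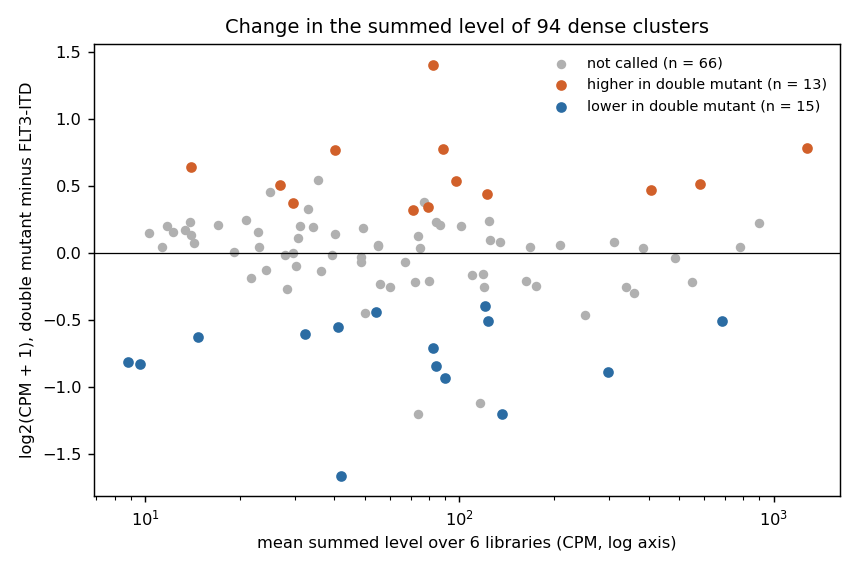
Change in summed level (log2(CPM + 1), double mutant minus FLT3-ITD) against the mean level over 6 libraries in CPM on a log axis, with 1 point for each of the 94 dense clusters. The 13 clusters that rose are orange, the 15 that fell are blue and the 66 not called are grey, and called clusters lie at all levels.

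Both rises and falls were found among the single peaks of the clusters. Of the 536 peaks 54 rose and 68 fell, 22.8% in all, whereas 24.4% of the 19162 tested peaks were called, 14.1% higher and 10.4% lower. The median log2 difference was -0.02 for member peaks and 0.05 for all tested peaks. The excess of falls among member peaks turned to 41 rises and 36 falls without FLT3-ITD replicate 3 and to 45 and 43 without double-mutant replicate 3. Of the called peaks, 1 that rose and 6 that fell had passed the level filter through a single group. Changes of 1 or more on the log2 scale were called for 8 peaks that rose (1.49%) and 14 that fell (2.61%), beside 3.19% and 2.38% of all tested peaks. Called peaks were spread over 59 clusters and 35 clusters had none. In 35 clusters 2 or more peaks were called, and in 30 of these they all moved the same way, a count not made for other chains. In the other 5 a cluster held peaks that rose and peaks that fell.

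The level of a library relative to its group differed with peak width, most in double-mutant replicate 2. In double-mutant replicate 2, the 177 member peaks of 38 to 143 bp lay a median of 0.16 log2 above the mean of the other libraries of its group, against 0.02 for the 179 peaks of 1 to 18 bp. Over all tested peaks of the same widths these values were 0.13 and -0.01. For wide member peaks double-mutant replicates 1 and 3 were at -0.091 and -0.092, and for narrow ones at 0.010 and 0.001. Each was set against a mean that held replicate 2. FLT3-ITD replicate 3 lay above its group at both widths, by 0.075 for wide and 0.127 for narrow member peaks. Among the wide member peaks 19 rose and 15 fell, and among the narrow ones 16 rose and 24 fell. Among the 180 member peaks between these, of 19 to 37 bp, 19 rose and 29 fell. Over all tested peaks, 1234 rose and 811 fell of 8822 wide ones. Of 5227 narrow ones 745 rose and 571 fell, and of 5070 with 19 to 37 bp 714 rose and 600 fell. The excess of falls among narrow and middle member peaks was thus not seen over all tested peaks. The part of double-mutant replicate 2 in the counts was not tested beyond leaving it out. That gave 53 peaks that rose and 80 that fell, and 14 clusters that rose and 23 that fell. Leaving out double-mutant replicate 3 instead gave 14 clusters that rose and 12 that fell. Without FLT3-ITD replicate 2 or 3 the number of called peaks fell to 75 and 77.

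The largest rise was in chr13:19403154-19403584 on the minus strand, a cluster of 7 narrow peaks. Values in threes below follow replicates 1 to 3. The summed level was 41.6, 41.1 and 51.2 CPM in FLT3-ITD and 131, 99.4 and 131 CPM in the double mutant. Every double-mutant library was above every FLT3-ITD library, and the means differed by a ratio of 2.70 (log2 difference 1.41, SE 0.14, adjusted p = 2.66e-05). Starts rose together here: 6 of the 7 peaks were called higher and none changed its share. The dominant peak, chr13:19403350-19403367, held 35.6% of the tags in FLT3-ITD and 37.7% in the double mutant. Its level went from 14.7, 13.8 and 19.4 CPM to 49.8, 37.8 and 48.6 CPM.

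The strongest cluster was also among those that rose. In chr19:6057892-6058359 on the plus strand the summed level was 943, 987 and 867 CPM in FLT3-ITD and 1503, 1880 and 1450 CPM in the double mutant. The ratio of means was 1.73 (log2 difference 0.78, SE 0.12, adjusted p = 0.000815), with no overlap. By the mean effective number of starts over the 6 libraries, 1.124, this cluster was the closest to a single start. That number was 1.13 in FLT3-ITD and 1.12 in the double mutant. In chr15:36538239-36538894 the mean was 1.129, but the FLT3-ITD value was lower than here, at 1.118. A peak of 33 bp, chr19:6057925-6057958, carried 97.9% and 98.2% of the tags. The other 4 peaks ranged from 0.49 to 16.1 CPM in single libraries.

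In the other 3 clusters named for a rise no change in the dominant share was called. In chr2:79095500-79096109 on the plus strand the summed level was 60.2, 68.1 and 66.1 CPM against 114, 133 and 91.7 CPM in the double mutant (ratio 1.74, adjusted p = 0.00156). A broad dominant peak of 98 bp carried 87.9% and 89.9% of it. In chr19:46119469-46120011 on the minus strand the values were 29.1, 26.7 and 33.1 CPM against 49.2, 55.1 and 49.0 CPM (ratio 1.73, adjusted p = 0.000692). In chr19:5424250-5425026 on the minus strand they were 73.6, 82.3 and 81.8 CPM against 119, 116 and 110 CPM (ratio 1.46, adjusted p = 0.00236). Groups were apart in each of these 3, and all 5 named rises were called under each of the 17 alternatives.

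Among falls, chr16:37883180-37883988 on the plus strand had the largest difference and the least certain call. Its 5 peaks summed to 47.2, 62.5 and 80.4 CPM in FLT3-ITD and 26.7, 9.51 and 26.0 CPM in the double mutant. The ratio of means was 0.327 (log2 difference -1.66, SE 0.44, adjusted p = 0.0396), and the 3 lowest libraries were those of the double mutant. Double-mutant replicate 2 was below its group, and without it the fall was still called. The adjusted p was between 0.0527 and 0.0801 without FLT3-ITD replicate 1, 2 or 3 or without double-mutant replicate 3, and the call stood in 10 of 17 alternatives.

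In chr19:5493131-5493937 on the plus strand the loss fell on the dominant start. The summed level was 178, 160 and 232 CPM in FLT3-ITD and 103, 56.0 and 91.4 CPM in the double mutant (ratio 0.440, log2 difference -1.20, SE 0.23, adjusted p = 0.00557). The dominant peak, chr19:5493650-5493667, went from 164, 144 and 210 CPM to 88.0, 46.1 and 74.4 CPM. The upstream peak chr19:5493412-5493427 stayed within 4.86 to 6.49 CPM in all 6 libraries. The share of the dominant peak was therefore lower, 91.9%, 89.8% and 90.7% against 85.2%, 82.2% and 81.5% (adjusted p = 0.00819). The effective number of starts was 1.52 ± 0.06 in FLT3-ITD and 1.94 ± 0.10 in the double mutant (SD, n = 3, limma adjusted p = 0.0438).

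The cluster chr4:43575033-43575369 on the minus strand changed in sum, share, mean position and effective number of starts. Its summed level was 126, 112 and 118 CPM in FLT3-ITD and 55.7, 69.0 and 60.7 CPM in the double mutant (ratio 0.522, log2 difference -0.93, SE 0.11, adjusted p = 0.000132). The dominant peak chr4:43575269-43575302 was at 91.4, 81.1 and 85.02 CPM against 32.6, 40.9 and 35.3 CPM. Its upstream neighbour chr4:43575350-43575369 was at 10.0, 9.01 and 8.77 CPM against 6.80, 8.23 and 8.31 CPM and was not called. The dominant share was 72.6%, 72.6% and 72.2% in FLT3-ITD and 58.4%, 59.3% and 58.1% in the double mutant, with little spread within groups (adjusted p = 0.0136). Leaving out any library kept this share call, but edgeR's diffSpliceDGE test on the recovered tags gave it an adjusted p of 0.622. That test compares the change of a peak with the change of its whole cluster, the dominant peak included.

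Falls were also found in chr5:143666991-143667657 on the minus strand and chr7:13510754-13511119 on the plus strand. The first was at 320, 405 and 436 CPM against 224, 229 and 172 CPM (ratio 0.538, adjusted p = 0.00103), and 5 of its 6 peaks fell with no share called. The second was at 81.7, 119 and 125 CPM against 74.6, 44.0 and 62.7 CPM (ratio 0.557, adjusted p = 0.0167). There 1 peak fell, the dominant chr7:13510865-13510879, from 65.5, 94.5 and 91.5 CPM to 47.7, 30.1 and 43.0 CPM. The last call was lost without FLT3-ITD replicate 2, FLT3-ITD replicate 3 or double-mutant replicate 2, with adjusted p of 0.0622, 0.0552 and 0.051.

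**Figure D2:**
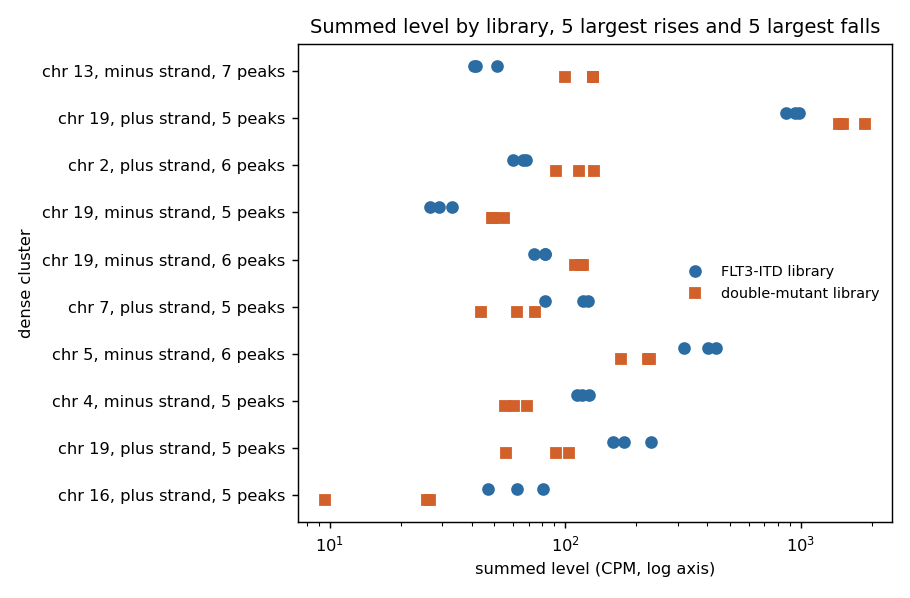
Summed level in CPM on a log axis in each of the 6 libraries for the 5 largest rises (upper rows) and 5 largest falls (lower rows), with FLT3-ITD libraries as blue circles and double-mutant libraries as orange squares. The groups do not overlap in any row, and the widest spread within a group is in the chromosome 16 cluster, from 9.51 to 26.7 CPM in the double mutant.

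The chains around a called cluster did not always differ in its direction. Around the 28 called clusters, the median log2 difference of other chains within 250000 bp had the same sign in 20 (71.4%), beside 77.4% for all called chains with neighbours. Around chr19:6057892-6058359, 21 of 29 neighbouring chains were called higher and 0 lower, with a median of 0.68. Around chr19:5424250-5425026, 14 of 27 were higher and 1 lower. The falling cluster chr19:5493131-5493937 lay in the same stretch of chromosome 19 and had 33 neighbours, of which 17 were called higher and 0 lower, with a median of 0.46. Opposite-strand peaks lay within 1000 bp of 32 clusters. Of the 9 called clusters with such peaks, 8 had an opposite-strand sum with a difference of the same sign, beside 83.2% of all such called chains.

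Of the other clusters with the highest levels, chr3:135101244-135101744 on the plus strand fell. It was at 834, 768 and 810 CPM in FLT3-ITD and 542, 584 and 572 CPM in the double mutant (ratio 0.704, adjusted p = 0.00317), with no overlap. Its dominant peak was the most downstream and fell from 666, 611 and 629 CPM to 407, 443 and 428 CPM. The peak before it, chr3:135101507-135101548, was at 63.7, 64.1 and 64.7 CPM against 60.0, 66.4 and 64.5 CPM. That peak was not called and its groups overlapped.

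In chr15:36538239-36538894 and chr11:69734351-69734849, both on the minus strand, no change in summed level was called. The first was at 881, 767 and 817 CPM against 1077, 739 and 1113 CPM, where the groups overlapped because of double-mutant replicate 2. Without that library the log2 difference was 0.42 (adjusted p = 0.00439). Leaving out any other library gave no call, with adjusted p up to 0.633. The second was at 781, 773 and 748 CPM against 923, 828 and 647 CPM, with an adjusted p of 0.832. Within it the most upstream peak, chr11:69734831-69734849, fell from 221, 217 and 205 CPM to 140, 185 and 144 CPM (log2 difference -0.47, adjusted p = 0.0135). The dominant peak directly downstream, chr11:69734746-69734825, was at 455, 447 and 446 CPM against 663, 519 and 382 CPM and was not called.

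The use of starts within a cluster was compared by the share of each peak, as log2 of the peak over the rest of its chain with 1 CPM added to each. Of the 536 peaks 21 gained share in the double mutant and 23 lost share, 8.21%, beside 7.29% of the 9218 peaks in chains of 2 or more. Among those 9218 peaks 3.50% gained and 3.79% lost. Called shares lay in 27 clusters, and in 10 of these some peaks gained and others lost. Shares of a cluster depend on each other, because a gain at a peak lowers the shares of the rest. The median size of a called change was 8.02 percentage points, and 12 of the 44 concerned the dominant peak. These calls depended on the test. The diffSpliceDGE test called 8 of the 536, all among the 44, and a smaller pseudocount of 0.1 called 3.

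Profiles of start use were compared between libraries. The difference between a pair of libraries is given as the percentage of tags that would have to move to other starts to make the profiles equal. Its mean was a median of 6.20% for pairs within a group and 8.28% for pairs across groups, and it was larger across groups in 77 of 94 clusters (81.9%). Over all 3886 chains of 2 or more peaks these medians were 3.82% and 4.92%, and the difference was larger across groups in 60.3%, with no test of either.

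**Figure D3:**
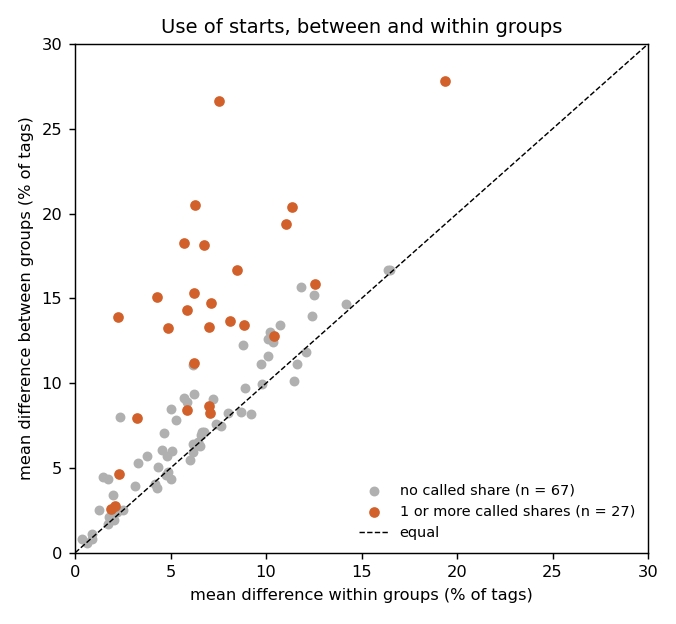
Mean difference in start use between libraries of different groups (vertical axis, % of tags) against that between libraries of the same group (horizontal axis, % of tags), with 1 point per dense cluster and a dashed line of equality. Points lie above the line in 77 of 94 clusters, and the 27 clusters with a called share are orange.

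The clearest exchange of dominant starts was in chr13:47200976-47201539 on the minus strand. The wide peak chr13:47201158-47201243 held 26.1%, 24.6% and 30.4% of the tags in FLT3-ITD and 49.0%, 45.3% and 56.2% in the double mutant. The narrow peak chr13:47201052-47201070 downstream of it held 42.3%, 45.4% and 40.3% against 26.8%, 31.9% and 20.9%. In each of the 3 FLT3-ITD libraries the downstream peak was dominant, and in each of the 3 double-mutant libraries the upstream peak was. The summed level was 53.4, 44.2 and 50.5 CPM against 40.1, 61.0 and 42.0 CPM and overlapped between groups (adjusted p = 0.769).

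Both starts in that exchange passed the share test, but these tests were not independent, since a gain at a strong peak lowers the other shares. The wide peak had a log2 ratio difference of 1.38 (SE 0.22, adjusted p = 0.00369), and its level rose from 13.9, 10.9 and 15.4 CPM to 19.6, 27.6 and 23.6 CPM. This gain was called under all 16 alternatives, with adjusted p from 0.000923 to 0.0479. The narrow peak had a difference of -0.9995 (SE 0.22, adjusted p = 0.019), and its call was lost without FLT3-ITD replicate 2, double-mutant replicate 1 or double-mutant replicate 3, with adjusted p of 0.0631, 0.0554 and 0.0797. Its diffSpliceDGE adjusted p was 0.114. The most downstream peak lost share as well, from 19.5%, 19.6% and 19.4% to 12.8%, 11.5% and 9.65% (adjusted p = 0.0175).

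The other cluster whose dominant start differed in all 6 libraries was chr10:80260606-80261321 on the minus strand. Here the exchange ran downstream. The most upstream peak, chr10:80261221-80261321 and 100 bp wide, held 40.2%, 39.2% and 42.4% in FLT3-ITD and 30.7%, 21.3% and 26.7% in the double mutant (log2 ratio difference -0.91, SE 0.21, adjusted p = 0.0234). The most downstream peak, chr10:80260606-80260636, held 32.0% ± 0.8 and 43.5% ± 3.7 (SD, n = 3), with an adjusted p of 0.0501. Its neighbour chr10:80260664-80260695 held 10.4%, 9.22% and 8.82% against 15.3%, 14.6% and 15.8% (adjusted p = 0.0276). The tag-weighted mean position was 317 ± 4.32 bp from the 5′ end in FLT3-ITD and 418 ± 25.5 bp in the double mutant (SD, n = 3), which was not called (limma adjusted p = 0.0607).

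The share calls in this chromosome 10 cluster depended on the gap limit and on single libraries. With a limit of 200 bp, which splits it at a gap of 241 bp, the log2 ratio difference of the upstream peak was -0.40 (adjusted p = 0.307) and that of chr10:80260664-80260695 was 0.20 (adjusted p = 0.557). The upstream loss was called without FLT3-ITD replicate 1 and without double-mutant replicate 1, but not without any of the others, with adjusted p up to 0.0792. The gain of chr10:80260664-80260695 was called in 1 of 6 such refits, with adjusted p up to 0.0905. With diffSpliceDGE the adjusted p was 0.0454 for the upstream loss and 0.119 for this gain. The level of the upstream peak itself fell, from 23.4, 23.1 and 27.0 CPM to 15.5, 11.95 and 12.7 CPM (adjusted p = 0.000982). In 5 further clusters the group means named different dominant peaks, but at least 1 library differed from its group.

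Share moved among starts without a called change in sum in 4 more of the named clusters. In chr17:35137910-35138527 on the plus strand the dominant peak chr17:35138043-35138106 held 63.3%, 60.7% and 66.9% in FLT3-ITD and 49.8%, 51.3% and 46.8% in the double mutant (adjusted p = 0.0238). Downstream of it chr17:35138325-35138368 held 13.7%, 14.9% and 11.99% against 21.5%, 20.8% and 23.0% (adjusted p = 0.0198). Groups did not overlap for either peak. Both calls were lost without FLT3-ITD replicate 3, double-mutant replicate 1 or double-mutant replicate 3, with adjusted p from 0.0591 to 0.0862. The diffSpliceDGE test gave an adjusted p of 0.375 for the dominant peak and 0.0182 for the downstream one.

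In chr9:32348906-32349276 on the minus strand the dominant peak, chr9:32348943-32349001, gained. It held 62.3%, 67.4% and 62.0% in FLT3-ITD and 78.8%, 73.2% and 79.2% in the double mutant (adjusted p = 0.0198), while its level overlapped between groups, 41.2, 47.4 and 37.0 CPM against 44.6, 39.5 and 42.2 CPM. The upstream peak chr9:32349174-32349187 fell from 14.1, 13.3 and 14.7 CPM to 5.87, 8.51 and 6.03 CPM (adjusted p = 0.000994). The gain in share thus went with lower minor starts. The summed level was 66.2, 70.4 and 59.7 CPM against 56.6, 53.9 and 53.3 CPM. Groups were apart in this sum, but no change was called (limma adjusted p = 0.0938). The gain in share was not called without FLT3-ITD replicate 1 or 3 or double-mutant replicate 1 or 3, with adjusted p from 0.0503 to 0.0781. By diffSpliceDGE its adjusted p was 0.749.

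In chr8:123012316-123012967 on the plus strand the most upstream peak, chr8:123012316-123012390, held 26.7%, 23.5% and 22.9% against 33.2%, 42.6% and 34.4% (adjusted p = 0.0333). Its level rose from 18.8, 15.8 and 16.8 CPM to 29.4, 28.8 and 26.0 CPM. The share call held in 1 of 6 refits without a library, and the adjusted p reached 0.106 without double-mutant replicate 2. By diffSpliceDGE the adjusted p of this gain was 0.191. The remaining named loss was chr7:3656280-3656293, the dominant and most downstream peak of a plus-strand cluster of 5. It held 74.4%, 79.8% and 79.9% against 71.3%, 53.8% and 68.3% (adjusted p = 0.0444), and double-mutant replicate 2 was the lowest. Without that library the adjusted p was 0.123. The call was also lost without FLT3-ITD replicate 2 or 3 or double-mutant replicate 3, and it stood in 5 of 15 alternatives. The diffSpliceDGE test gave this loss an adjusted p of 0.996.

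In chr16:92825850-92826325 on the minus strand both the sum and the shares moved. The summed level rose from 22.5, 21.6 and 21.7 CPM to 34.3, 33.1 and 27.9 CPM (ratio 1.45, adjusted p = 0.00888). The dominant peak chr16:92826249-92826325, the most upstream, was not called, at 15.02, 15.3 and 11.6 CPM against 17.3, 14.4 and 13.6 CPM. The rise lay downstream, where chr16:92825996-92826011 went from 1.07, 0.68 and 1.40 CPM to 3.86, 5.01 and 4.35 CPM (adjusted p = 0.00024). The share of that peak was 4.76%, 3.15% and 6.48% in FLT3-ITD and 11.2%, 15.1% and 15.6% in the double mutant (adjusted p = 0.0134). The dominant share went from 66.7%, 70.9% and 53.4% to 50.4%, 43.4% and 48.6% (adjusted p = 0.0469), a call that held in 1 of 6 refits without a library. With diffSpliceDGE the adjusted p was 0.453 for the dominant share and 0.0122 for that of chr16:92825996-92826011.

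**Figure D4:**
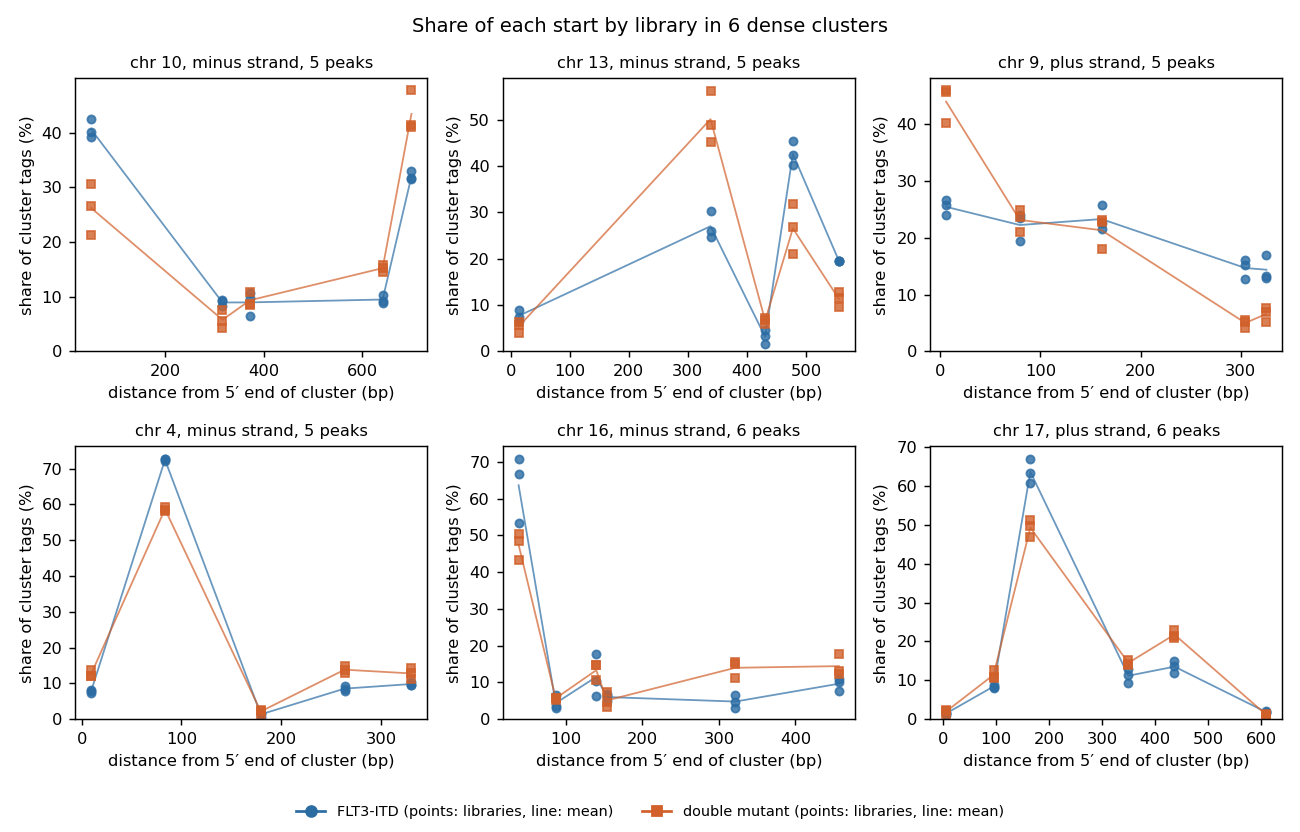
Share of cluster tags in % at each start against its distance in bp from the 5′ end of the cluster, in 6 dense clusters, with FLT3-ITD libraries as blue circles, double-mutant libraries as orange squares and group means joined by lines. In the chromosome 13 cluster the blue and orange lines cross between the upstream start (27.0% and 50.2%) and the downstream start (42.7% and 26.5%).

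Few shifts of the whole profile were called. The tag-weighted mean position along the strand changed in 2 of 94 clusters, 2.13%, beside 0.746% of 3885 chains of 2 or more peaks. An unadjusted p under 0.05 was reached by 33 clusters, and the share of all chains that reached it was not counted. The median size of the shift was 9.09 bp, and it was 20 bp or more in 30 clusters. The effective number of starts changed in 5 clusters, 5.32%, beside 1.31% of the same chains. It was higher in the double mutant in 3 and lower in 2. With so few calls these percentages rest on single clusters.

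The upstream shift was in chr9:54997107-54997437 on the plus strand, a weak cluster of 13.8, 10.54 and 13.9 CPM in FLT3-ITD and 14.2, 15.02 and 15.9 CPM in the double mutant. The mean position was 144, 144 and 138 bp from the 5′ end in FLT3-ITD and 91.0, 83.2 and 83.8 bp in the double mutant. Tags thus lay 56.1 bp further upstream in the double mutant, with groups apart (SE 2.89, limma adjusted p = 0.00853). The most upstream peak, chr9:54997107-54997119, rose from 3.32, 2.72 and 3.68 CPM to 5.71, 6.87 and 7.32 CPM. The peak chr9:54997410-54997413 near the other end fell from 1.76, 1.70 and 2.11 CPM to 0.587, 0.787 and 0.890 CPM. That peak reached 1 CPM in the FLT3-ITD libraries alone, so the level filter had fixed its direction and it is no support for the shift. With 1 CPM required in all 6 libraries, which drops it and the most downstream peak, the shift was -17.3 bp (adjusted p = 0.0636), and with a gap of 500 bp it was -84.4 bp (adjusted p = 0.0706). The effective number of starts went from 4.85 ± 0.02 to 3.87 ± 0.09 (SD, n = 3, limma adjusted p = 0.00709). This number includes the peak chr9:54997410-54997413, so the level filter bears on that difference too. The shift was not called without FLT3-ITD replicate 2 (adjusted p = 0.0621) or double-mutant replicate 3 (adjusted p = 0.0531).

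The downstream shift was in chr4:43575033-43575369, described above for its fall. The mean position was 108, 109 and 111 bp in FLT3-ITD and 125, 122 and 122 bp in the double mutant, a difference of 14.1 bp (SE 1.29, limma adjusted p = 0.03). The dominant peak, toward the 5′ end, was the start that had lost share. The call was lost without any of the 6 libraries in turn, with adjusted p from 0.0719 to 0.108, although the shift stayed between 13.01 and 14.78 bp. The effective number of starts rose from 2.53 ± 0.04 to 3.29 ± 0.02 (SD, n = 3, limma adjusted p = 0.00392).

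Each of the 4 clusters with the most peaks held peaks called by level, but no shift of mean position was called in them. Called shares lay only in the 15-peak cluster, for 2 of its peaks. In chr5:143665000-143666462 on the minus strand, with 15 peaks over 1462 bp, the sum was 319, 247 and 297 CPM in FLT3-ITD and 239, 139 and 266 CPM in the double mutant (adjusted p = 0.165). Its 6 called peaks all fell, and all were among the 7 most upstream. Of these the strongest, chr5:143666316-143666327, went from 22.8, 30.9 and 41.9 CPM to 14.2, 7.44 and 13.2 CPM (log2 difference -1.39, adjusted p = 0.00806). The falling 6-peak cluster chr5:143666991-143667657 lay 529 bp further upstream on the same strand.

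None of the other 8 peaks of the 15-peak cluster was called by level. They included its dominant peak, chr5:143665326-143665330, at 158, 51.7 and 38.2 CPM against 109, 65.5 and 133 CPM. FLT3-ITD replicate 1 was above the other libraries of its group at this peak and the groups overlapped. The effective number of starts was 6.49, 10.4 and 11.2 in FLT3-ITD and 7.04, 6.59 and 6.29 in the double mutant, and the same library overlapped the double mutant (adjusted p = 0.291).

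The 13-peak cluster chr17:35970990-35973226 on the minus strand was the longest and the most even, with an effective number of starts of 11.0 in FLT3-ITD and 10.8 in the double mutant. Its sum was 51.8, 52.0 and 69.3 CPM against 48.8, 29.5 and 50.1 CPM (adjusted p = 0.127), and double-mutant replicate 2 was lowest. Of its peaks 1 was called, chr17:35972855-35972872, which fell from 6.34, 7.65 and 5.70 CPM to 4.95, 2.58 and 3.66 CPM (adjusted p = 0.0243).

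In the 9-peak cluster chr15:76734500-76735434 on the plus strand the most upstream peak rose and the sum did not change by the test. That peak, chr15:76734500-76734522, was at 56.6, 65.6 and 60.4 CPM in FLT3-ITD and 82.7, 98.2 and 84.5 CPM in the double mutant (log2 difference 0.53, adjusted p = 0.00492), with no overlap. The most downstream peak, chr15:76735423-76735434, was at 27.4, 29.7 and 37.4 CPM against 27.3, 5.44 and 13.2 CPM and was not called. Double-mutant replicate 2 was the lowest library at its downstream end. In the 9-peak cluster chr10:80641895-80643021, also on the plus strand, the sum was 108, 178 and 191 CPM against 105, 46.6 and 70.1 CPM, with a ratio of 0.466 and an adjusted p of 0.0638. Without FLT3-ITD replicate 1 or without double-mutant replicate 1 this fall was called, with adjusted p of 0.0189 and 0.0107. It was not called without replicate 2 or 3 of either group, with adjusted p up to 0.182. Of the 9 peaks of this cluster 2 were called lower, and no share was called.

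**Figure D5:**
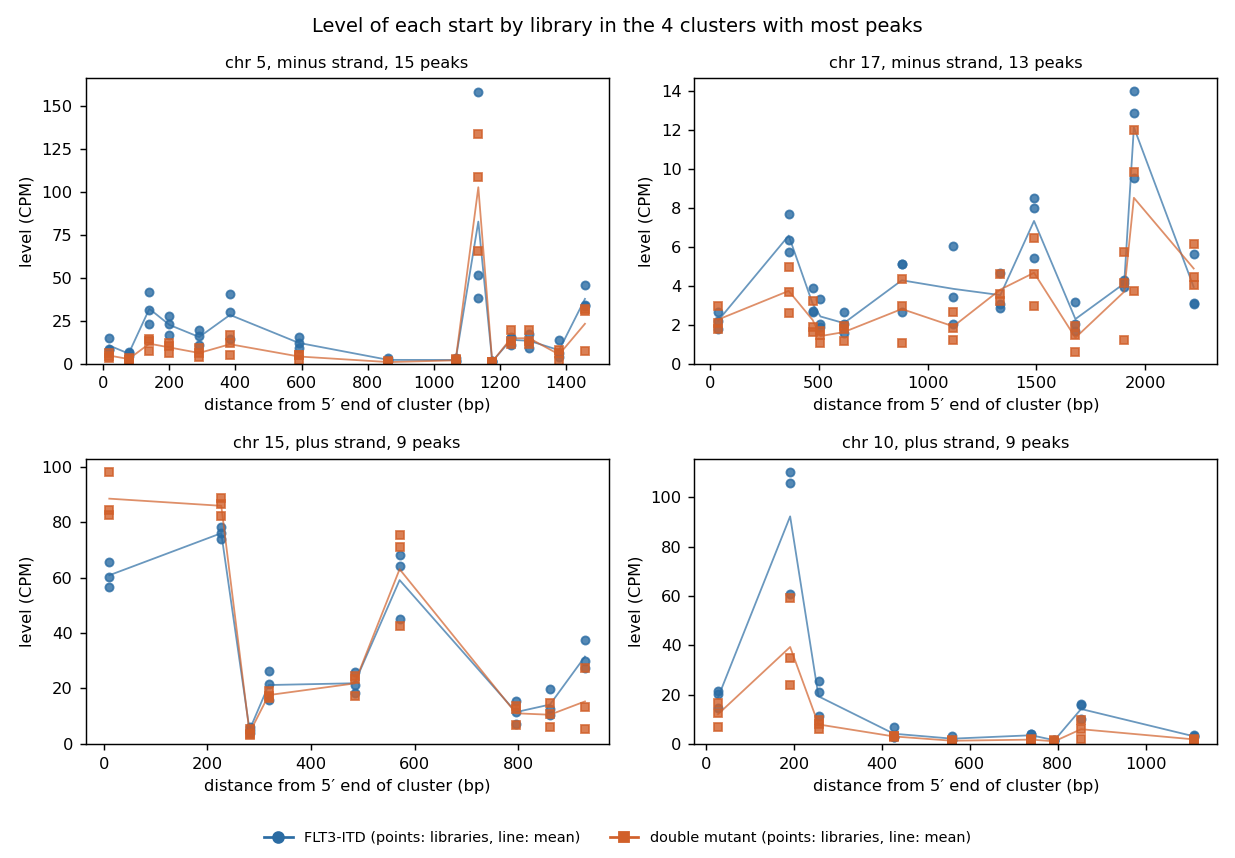
Level in CPM at each start against its distance in bp from the 5′ end of the cluster, in the 4 clusters with the most peaks, with FLT3-ITD libraries as blue circles, double-mutant libraries as orange squares and group means joined by lines. In the chromosome 5 panel the upstream starts are lower in the double mutant, while the dominant start ranges from 38.2 to 158 CPM within FLT3-ITD alone.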

How the data were processed

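CAGE libraries of 3 FLT3-ITD and 3 double-mutant samples of Ba/F3 cells were used. For each library the authors deposited CPM, 1 value per peak with a total of 1000000. TopHat2 2.0.14, edgeR 3.24.3, hg19 and mm9 are named in the submitters' processing notes, without roles. The filtering of tags and the calling of peaks are not given in the sources used here. All values (100%) were whole multiples of the value of 1 tag within a tolerance of 0.01 of a multiple, so tags could be recovered for count tests. Precision was limited by this depth, and a count of 0 allows up to 3 tags, 0.215 to 0.510 CPM by library, which covers counting error only.

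Members and lists were chosen with earlier results of these data known. Levels were fitted with limma 3.58.1 (trend and robust options, R 4.3.3) as log2(CPM + 1). Shares were fitted as log2 of peak plus 1 CPM over rest of chain plus 1 CPM, and mean positions and log2 effective numbers of starts without the trend option. Each fit covered all tested peaks or chains, with Benjamini-Hochberg adjustment and a threshold of 0.05. For 1 chain outside the dense clusters no position could be fitted. Group was the only term. Alternatives were TMM scaling, edgeR 4.0.16 (quasi-likelihood and diffSpliceDGE) and DESeq2 1.42.0 on recovered tags, other pseudocounts, filters and gaps, limma without its options, a replicate block, and leaving out each library. A pseudocount of 0.1 was chosen after seeing the data. No libraries were duplicates by their counts.

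Named clusters were the 4 with most peaks, the 4 highest, the 5 largest called rises and 5 largest falls of at least 20 CPM with groups apart, the clusters of the 6 largest called gains and 6 losses of share of the same kind, the called shifts of position, and those whose dominant start differed in all 6 libraries. A few peaks beside these were named after their values were seen. No genome or annotation of mm9 was used here, so no gene list, cell marker or sequence is given.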

Additional observations from a re-analysis of the deposited data

How the results depend on the processing

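Of the changes in summed level, 267 of 289 refits of the 17 named clusters kept direction and side of the threshold. Of the share changes, 122 of 190 refits of 12 named peaks did, none turned direction, and 68 missed the threshold. With 1 CPM required in all 6 libraries there were 48 dense clusters, and calls numbered 64 peaks by level, 11 sums, 26 shares, 1 position and 1 effective number, with 4 differing dominant starts. A gap of 200 bp gave 21 called shares and 3 differing dominant starts. A gap of 500 bp gave 47 called sums, 76 shares and 1 position. Chains of 4 or more peaks numbered 277, of 6 or more 32, and minimums of 0.5 and 2 CPM gave 212 and 37 clusters. Called shares numbered 26 with a pseudocount of 0.5, 3 with 0.1 and 8 by diffSpliceDGE. The cause was not tested.

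Leaving out a library gave 75 to 133 called peaks, 20 to 37 sums, 11 to 41 shares, 0 to 2 positions, 2 to 4 effective numbers and 8 to 10 differing dominant starts. The fewest shares, 11, came without double-mutant replicate 3, and the most, 41, without FLT3-ITD replicate 1. All these refits had fewer samples than the main fit, and the cause of the difference was not tested. The sums of 3 clusters, none of them called, turned sign. The chromosome 5 cluster of 15 peaks, with -0.47 at the settings used above, had a log2 difference of 0.0647 with 1 CPM in all libraries and 0.0419 with a gap of 200 bp. The chromosome 11 cluster had -0.0134 with TMM, -0.0021 with DESeq2 and -0.0673 to 0.188 when a library was left out, the lowest without double-mutant replicate 1. The chromosome 15 cluster of 9 peaks had -0.0112 to 0.156, the lowest without FLT3-ITD replicate 1.

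Replicates share numbers across groups, but their deviations did not pair them (r of -0.0053, 0.019 and 0.193 for the same number), and some libraries were closer to a library of another number. With the replicate block, limma called 109 peaks, 27 sums and 29 shares. It called 0 positions and 0 effective numbers, with 36 and 29 at an unadjusted p under 0.05. Depth limits the weakest starts, since 1 tag was worth 0.170 CPM in the shallowest library.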
